A study of Homo sapiens with 7 samples.

Results

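AGR2, SPDEF and the trefoil factors TFF1, TFF2 and TFF3 are 5 genes of mucus-secreting epithelium, and their transcripts were followed through 7 RNA-seq libraries of BHT-101, a human anaplastic thyroid cancer cell line. They were picked by name from a table of 13142 genes, with their levels in these libraries already known, so every difference between knockout and wild type given for them is a description without a test. All 5 passed the filter that left 11154 genes for testing. Wild-type (WT) cells gave 3 libraries, each a biological replicate, and 4 clones with ASH1L knocked out (KO) gave 1 library each. ASH1L encodes a Trithorax group enzyme that methylates histone H3. KO1 carries a stop codon after residue 413 of ASH1L, KO2 after residue 610 and KO3 after residue 2129, each on both alleles, and KO4 carries stops after residues 2169 and 2174. Every knockout line is 1 clone, no clone with intact ASH1L was analysed, and loss of ASH1L and other differences between a clone and the parental cells cannot be told apart.

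Secretory epithelia of the gut, airway and breast release mucins together with trefoil factors, small peptides held by disulfide bonds that stay in the mucus and aid repair of the epithelial surface. AGR2 is a protein disulfide isomerase of the endoplasmic reticulum that is needed for mucin folding, and SPDEF is a transcription factor of the ETS family that drives the maturation of goblet cells. In secretory cells SPDEF is known to raise AGR2 and other genes of the mucus pathway, and trefoil factors are common products of the same cells.

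AGR2 (ENSG00000106541) lies on chromosome 7 from 16791811 to 16833433 and SPDEF (ENSG00000124664) on chromosome 6 from 34537802 to 34556333 in hg38 with GENCODE 29. The trefoil genes stand side by side on chromosome 21, with TFF3 (ENSG00000160180) from 42311667 to 42315651, TFF2 (ENSG00000160181) from 42346357 to 42351128 and TFF1 (ENSG00000160182) from 42362282 to 42366594, and the starts of TFF1 and TFF3 are 50.9 kb apart. All 5 are on the minus strand and none overlaps another annotated gene. Promoter windows, from 250 bases before to 50 bases after the RefSeq start, were found for AGR2 and SPDEF, and both are shown so that their letters can be read beside the transcript levels. They are from RefSeq (GRCh38.p14), chr7:16804950-16805249 and chr6:34556280-34556579, both on the minus strand and written 5′ to 3′. The RefSeq start of AGR2, 16804999, lies 28.4 kb inside the longer gene that GENCODE 29 gives, at the start of a shorter transcript, while that of SPDEF, 34556329, is next to the GENCODE start. Capitals mark matches, on either strand, to a forkhead motif (GTAAANA) and a purine-rich ETS motif (AGGAAG).
AGR2: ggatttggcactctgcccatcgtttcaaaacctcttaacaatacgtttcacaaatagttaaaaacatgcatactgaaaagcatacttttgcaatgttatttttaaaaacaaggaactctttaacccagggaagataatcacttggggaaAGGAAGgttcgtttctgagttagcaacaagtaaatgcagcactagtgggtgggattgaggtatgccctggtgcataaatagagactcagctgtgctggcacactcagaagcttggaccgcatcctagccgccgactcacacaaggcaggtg
SPDEF: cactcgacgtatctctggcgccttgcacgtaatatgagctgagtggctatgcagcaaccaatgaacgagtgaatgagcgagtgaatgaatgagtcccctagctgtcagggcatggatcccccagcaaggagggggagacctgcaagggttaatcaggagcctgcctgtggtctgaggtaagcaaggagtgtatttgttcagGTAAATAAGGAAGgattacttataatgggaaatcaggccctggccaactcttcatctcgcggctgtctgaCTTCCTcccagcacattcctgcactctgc
In the AGR2 window the capitals are a single AGGAAG at -101 to -96 from the start. The SPDEF window holds the forkhead match at -49 to -43 with AGGAAG directly behind it at -42 to -37, and CTTCCT, the reverse complement of AGGAAG, at 22 to 27. AGGAAG is common, in 33.7% of 27305 RefSeq promoter windows of this length, while the forkhead motif was in 11.0%. On both strands of either window there was no match to the ETS motif CCGGAA. The ETS form CCGGAT had none, and the same held for the TATA box motif TATAAA. The core of the unfolded protein response element, CCACG, was not matched. GC content was 43.7% for AGR2 and 52.0% for SPDEF, against a median of 58.3% over all windows. A match is a run of letters and was not tested as a binding site.

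Levels are log2 RPKM, the log2 of reads scaled to gene length and to library size, so they can be set against each other between genes. Effective library sizes, worked out from the values themselves, ran from 44.0 to 70.4 M reads. Pearson correlations over the 11154 tested genes were 0.988 to 0.995 among WT libraries, 0.821 to 0.830 between KO1 and WT and 0.913 to 0.940 for the other clones. ASH1L transcript was at 0.659, 0.596 and 0.548 of the WT mean in KO1, KO2 and KO3 and at 1.37 in KO4, and RNA level does not show where a stop codon lies. Of 16 thyroid markers only PAX8, HHEX and DIO2 had values, with PAX8 at or below a log2 RPKM of -1.20 in every library, HHEX and DIO2 at or below 1.21 in WT, and TG, TSHR and SLC5A5 were not analysed here. Epithelial keratins were high in WT, with KRT18 at 7.61 to 7.78.

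SPDEF, the transcription factor of the group, was at a log2 RPKM of 4.36, 4.06 and 3.93 in WT1, WT2 and WT3, a mean of 4.11 ± 0.22 (SD, n = 3). The clones KO1, KO2, KO3 and KO4 gave -6.27, 4.62, 4.27 and 1.63. KO1 and KO4 lay below all WT libraries, KO2 lay above them and KO3 lay inside their range. In reads, SPDEF fell from 5957 over the 3 WT libraries to a single read in KO1, which is 0.0613% of the pooled WT level with an exact 95% Poisson interval from 0.00155% to 0.342%. The same measure was 142% in KO2, 111% in KO3 and 17.8% (16.1% to 19.6%) in KO4. These intervals cover counting error only. In a bulk library, fewer cells that make a transcript and less of it in each cell cannot be told apart.

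AGR2, the disulfide isomerase, was among the most abundant transcripts of WT cells, between place 57 and place 68 of the 13142 genes by RPKM. Its log2 RPKM was 8.72, 8.71 and 8.59 in WT1, WT2 and WT3, and the mean was 8.67 ± 0.07 (SD, n = 3). KO1 was at -1.79, KO2 and KO3 were both at 9.04 and KO4 was at 5.95. The 4 clones thus fell on both sides of WT, KO1 and KO4 below all 3 libraries and KO2 and KO3 above all 3, and the KO2 and KO3 values differed by less than the SD of the WT libraries. AGR2 took 67531, 75208 and 65553 reads in the WT libraries and 40 in KO1, where its place among the genes was 12259. KO1 therefore held 0.0702% (0.0501% to 0.0956%) of pooled WT, or 1425-fold less, KO4 held 15.1% (14.9% to 15.4%), and KO2 and KO3 held 129% each. At these counts the interval around the KO4 value is narrower than the spread of WT libraries, which ran from 94.5% to 103% of the WT mean.

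**Figure D1:**
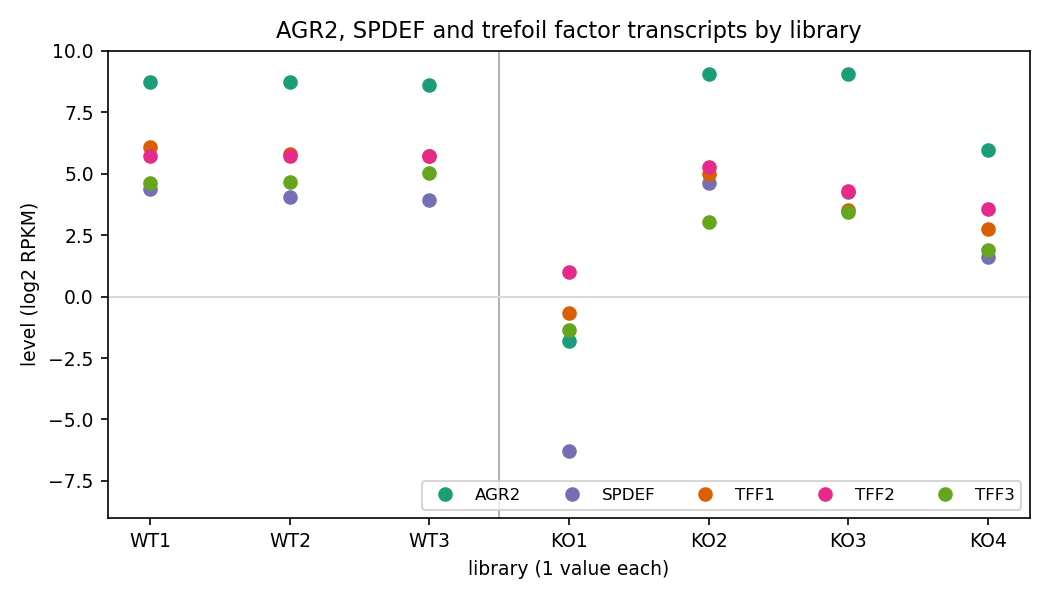
Level of each of the 5 transcripts (log2 RPKM, y axis) in each of the 7 libraries (x axis), 1 point per gene and library, with WT left and KO right of the grey line. In KO1 and KO4 each of the 5 genes is below its own value in every WT library. In KO2 and KO3 AGR2 is at 9.04 while the trefoil factors are at 3.04 to 5.29.

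The trefoil factors did not share the high values of AGR2 in KO2 and KO3. TFF1, an estrogen-responsive peptide of gastric and breast epithelium, was at a log2 RPKM of 6.10, 5.82 and 5.71 in WT1, WT2 and WT3 and at -0.65, 5.0, 3.52 and 2.74 in KO1, KO2, KO3 and KO4. TFF2, the peptide of mucous neck and gland cells that carries a pair of trefoil domains, was at 5.70, 5.71 and 5.73 in the WT libraries and at 1.02, 5.29, 4.30 and 3.55 in the clones in the same order. TFF3, the trefoil factor of intestinal goblet cells, was at 4.61, 4.65 and 5.03 and at -1.37, 3.04, 3.44 and 1.89. In each of these 3 genes all 4 clones lay below all 3 WT libraries, as did 10.1% of the 11154 tested genes, a share from which nothing is read because the genes were chosen on this contrast. KO1 was lowest and KO4 next in all 3. KO2 was the highest clone for TFF1 and TFF2, and KO3 the highest for TFF3. The mean difference between the 4 clones and WT was -3.22 for TFF1, -2.18 for TFF2 and -3.01 for TFF3, while the SD among clones was 2.39, 1.83 and 2.18. KO1 sets much of these means, since without it they were -2.12, -1.33 and -1.97. For AGR2 and SPDEF the mean difference was -3.11 and -3.05 with all 4 clones and -0.66 and -0.61 without KO1.

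In reads, the trefoil transcripts were lost less completely from KO1 than AGR2 and SPDEF were. TFF2 kept 82 reads in KO1, 3.84% of pooled WT (3.05% to 4.76%), TFF3 kept 22, 1.40% (0.879% to 2.12%), and TFF1 kept 17, 1.07% (0.623% to 1.71%). These intervals hold only the counting error of 1 KO1 library, where SPDEF has 1 read, so the shares are set side by side without a test. The picture in KO4 was more even, at 11.3% for TFF1, 22.3% for TFF2 and 13.5% for TFF3 beside 15.1% for AGR2 and 17.8% for SPDEF. KO3 held 19.5% of TFF1, 37.5% of TFF2 and 39.7% of TFF3. KO2 held 54.3%, 74.5% and 29.9%, so TFF3 was its lowest trefoil transcript.

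**Figure D2:**
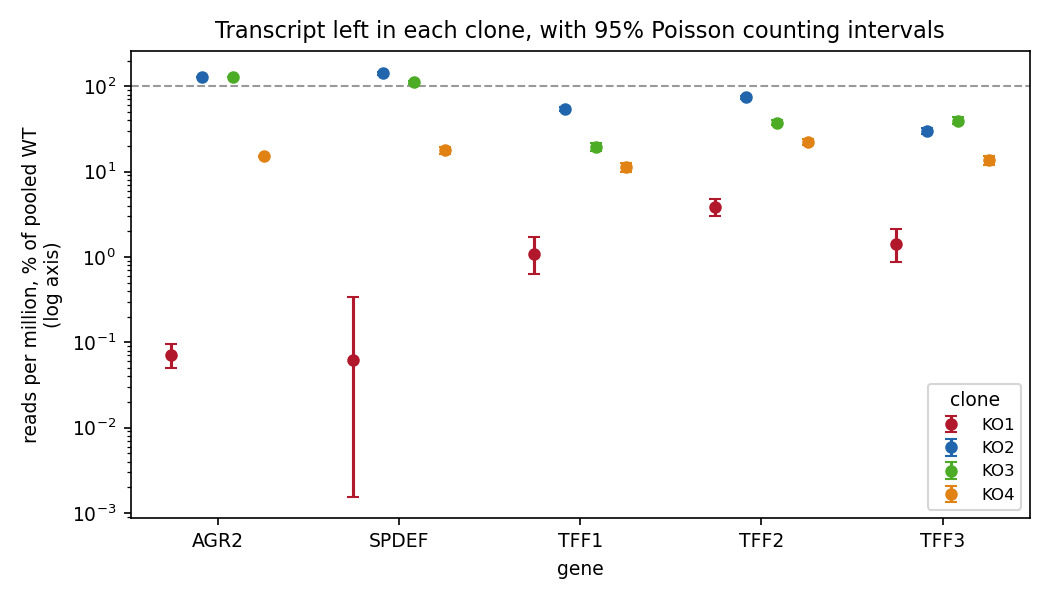
Reads of each gene, scaled to library size, in each clone as a percentage of the pooled WT libraries (log axis), with exact 95% Poisson intervals as bars and the dashed line at 100%. AGR2 and SPDEF are at 111% to 142% in KO2 and KO3, the trefoil factors are at 19.5% to 74.5% there, and KO1 is lowest for every gene.

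Counted by size, all 5 genes were at least 2-fold below the WT mean in KO1 and in KO4, 3 were in KO3 (the trefoil factors) and 1 was in KO2 (TFF3). Over all tested genes that share was 9.64%, 3.9%, 5.67% and 4.72% in the 4 clones in order, given for scale only. The median difference of the 5 genes from the WT mean was -6.53, -0.42, -1.32 and -2.72 in the clones KO1 to KO4, and over all tested genes it was between -0.02 and 0.00 in each clone. Ordered from the most negative difference in KO1, AGR2 was number 18 and SPDEF number 20 of the 11154 genes, TFF1 was 88, TFF3 was 105 and TFF2 was 157.

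The ratio of AGR2 to SPDEF was nearly fixed. As log2 of the RPKM ratio it was 4.36, 4.65 and 4.67 in WT1, WT2 and WT3 and 4.48, 4.42, 4.77 and 4.32 in KO1, KO2, KO3 and KO4. Over 7 libraries in which AGR2 covered 10.84 and SPDEF 10.90 log2 units, the ratio covered 0.45. In KO1 the ratio rests on 1 SPDEF read. KO3 and KO4 lay just outside the WT range on opposite sides, and KO1 and KO2 inside it. Ratios of TFF1, TFF2 and TFF3 to AGR2 covered 6.66, 7.55 and 6.43 log2 units. For TFF2 over AGR2 the WT mean was -2.96 ± 0.09 (SD, n = 3), and KO1, KO2, KO3 and KO4 gave 2.81, -3.75, -4.74 and -2.40. In WT cells AGR2 was thus above TFF2 and in KO1 below it.

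**Figure D3:**
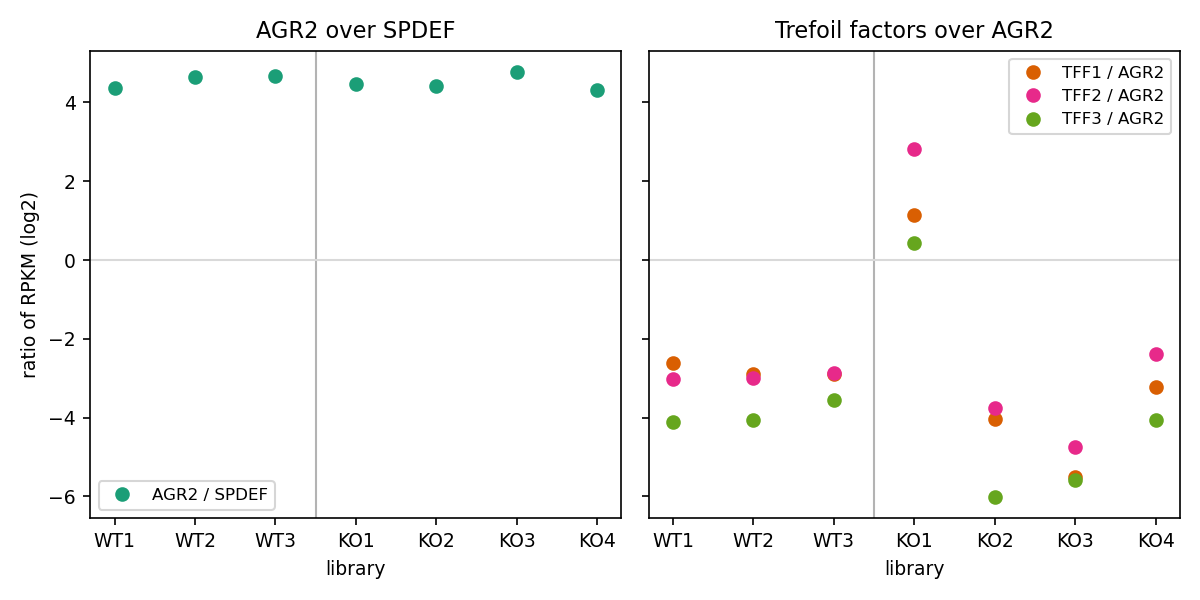
Log2 ratios of RPKM (y axis) in each library (x axis), 1 point per library, with AGR2 over SPDEF on the left and each trefoil factor over AGR2 on the right. The left panel stays between 4.32 and 4.77, and the right panel runs from -6.01 to 2.81.

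Correlations over libraries rest on the same values as these ratios, so they are no separate support for a grouping. Over the 7 libraries Pearson's r was 0.999 for AGR2 with SPDEF and 0.996 for TFF1 with TFF2, and 0.913 to 0.937 for AGR2 with the trefoil factors. Without KO1, over 6 libraries, AGR2 with SPDEF stood at 0.990 and TFF1 with TFF2 at 0.989, while AGR2 with TFF1, TFF2 and TFF3 was at 0.65, 0.72 and 0.66. Over the 5 libraries left when KO4 was dropped too, AGR2 with SPDEF was at 0.76 and TFF1 with TFF2 at 0.99. AGR2 with TFF1, TFF2 and TFF3 had turned to -0.80, -0.80 and -0.99. SPDEF with TFF1, TFF2 and TFF3 was at -0.26, -0.29 and -0.81. TFF3 was at 0.72 with TFF1 and 0.70 with TFF2, no higher than AGR2 with SPDEF. The 3 WT libraries lie close together in each of these, so few points carry the values, and they are given without a test.

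Within the trefoil cluster the balance between the peptides also differed between libraries. The summed RPKM of the 3 genes was 145, 134 and 138 in WT1, WT2 and WT3 and 3.05, 79.3, 42.1 and 22.1 in KO1, KO2, KO3 and KO4. TFF2 made up 35.8%, 39.1% and 38.5% of that sum in the WT libraries and 66.3%, 49.3%, 46.9% and 53.1% in the clones, above every WT library in all 4. TFF1 made up 37.8% to 47.3% in WT and 20.9%, 40.3%, 27.3% and 30.1% in the clones, so KO2 stayed in the WT range and the others were below it. The share of TFF3 was 16.8% to 23.6% in WT, with KO1 at 12.7% and KO2 at 10.3% below that range, KO3 at 25.9% above it and KO4 at 16.8%.

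Genes next to the 5 were examined to see how far along the chromosome the differences reached. Within 1 Mb of SPDEF 18 genes were tested, and their median differences from the WT mean were -0.08, -0.15, 0.14 and 0.08 in KO1, KO2, KO3 and KO4. The nearest on either side, RPS10 (a ribosomal protein gene) and C6orf106, were at -0.30 and -0.13 in KO1, where SPDEF was at -10.39. The 9 genes around the trefoil cluster had medians of -0.20, 0.06, -0.24 and -0.30. Its nearest tested neighbours, the lipid transporter gene ABCG1 and the sugar phosphate exchanger gene SLC37A1, were at -2.32 and -1.65 in KO1 (limma, adjusted p 0.00877 and 0.000284). SLC37A1 was also lower in KO4, by -0.58 (limma, adjusted p 0.0294), and neither gene passed the test in KO2 or KO3.

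Around AGR2, 5 genes were tested, with medians of -0.37, -0.02, -0.04 and -0.38. TSPAN13, a tetraspanin gene the nearest tested gene on one side (start at -79.9 kb), had a log2 RPKM of 4.87, 4.85 and 4.77 in WT1, WT2 and WT3 and 1.28, 4.81, 4.84 and 2.53 in KO1, KO2, KO3 and KO4. AHR, the aryl hydrocarbon receptor gene on the other side (start at 82.9 kb), had 3.85, 3.78 and 3.56 in WT and 2.60, 4.10, 3.70 and 2.57 in the clones. These distances are between GENCODE gene starts, and the RefSeq start of AGR2 lies 28.4 kb inside its GENCODE gene. RefSeq starts of the neighbours were not compared, so the distance between promoters was not tested. TSPAN13 and AHR were thus low in the same 2 clones as AGR2 and at or near WT in the other 2. TSPAN13 was lower than WT by -3.55 ± 0.10 (SE) in KO1 and -2.30 ± 0.10 in KO4, and AHR by -1.14 ± 0.14 and -1.17 ± 0.14 (limma, adjusted p 1.81e-06, 5.06e-05, 0.00111 and 0.00226). In KO2 and KO3 neither passed the test, with differences from -0.04 to 0.37. Farther out, BZW2, ANKMY2 and ISPD were between -0.37 and 0.11 in KO1. These single-clone tests take the spread from the 3 WT libraries and assume that a clone varies like them, and their p-values measure the spread between these libraries only. Over all tested genes KO1 had 44.2% called, KO2 33.2%, KO3 34%, and KO4 24.7%.

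**Figure D4:**
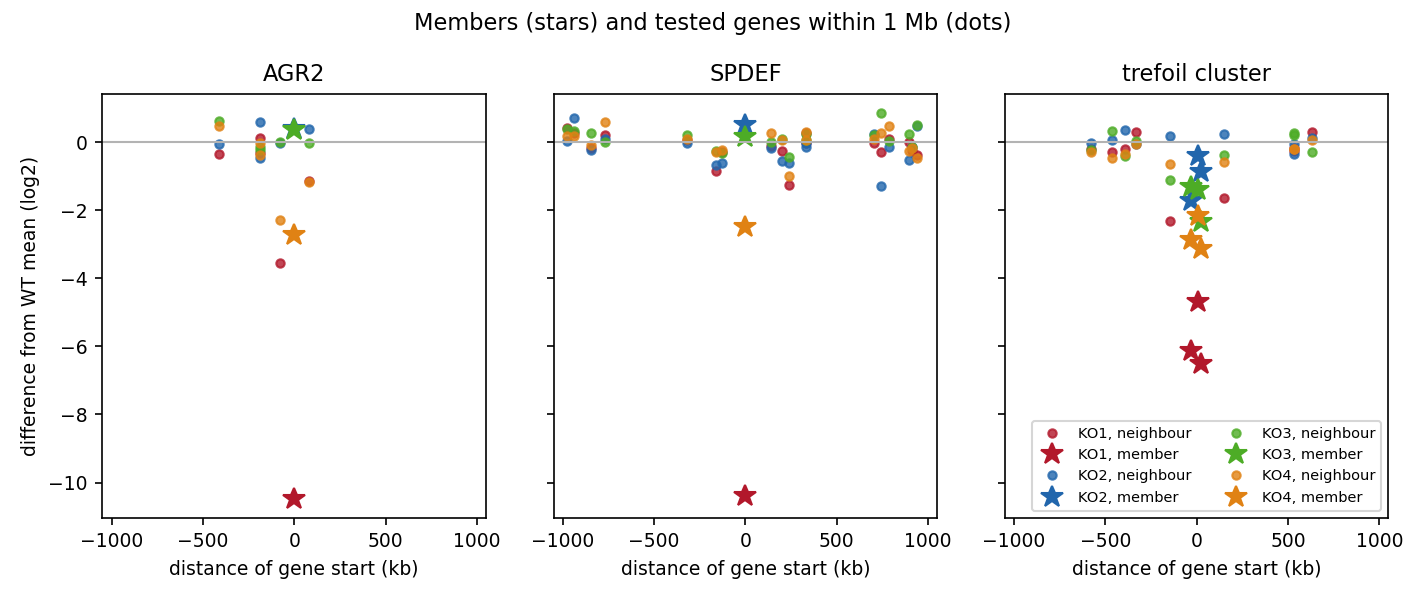
Difference from the WT mean (log2, y axis) against the distance of the GENCODE gene start from the locus (kb, x axis) for the 5 genes (stars) and the tested genes within 1 Mb (dots), coloured by clone. Around SPDEF the KO1 dots stay between -1.26 and 0.41 while its star is at -10.39, and next to AGR2 a KO1 dot at -3.55 and a KO4 dot at -2.30 are TSPAN13.

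The genes whose levels were most like these 5 over the 7 libraries were ranked by Pearson's r among the tested genes with a name. Tested genes with placeholder symbols, such as RP, AC, LINC or LOC numbers, were left out of the ranking. For AGR2 the first was SPDEF, and for SPDEF it was AGR2. IL1R2, a decoy receptor for interleukin 1, was in the first 5 for both, with r of 0.995 and 0.996, and 0.936 and 0.957 without KO1. Its log2 RPKM was 2.34, 2.30 and 1.99 in WT1, WT2 and WT3 and -6.09, 2.39, 1.63 and -0.19 in KO1, KO2, KO3 and KO4, so like AGR2 and SPDEF it was lowest in KO1 and next lowest in KO4. UQCR10, a respiratory chain subunit, was also in the first 5 for both although it moved over only 0.43 log2 units, since r does not depend on size. The least like were ZNF621, PCOLCE2 and BAG1, which were highest in KO1 and next highest in KO4, over 0.76 to 1.17 log2 units.

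The trefoil factors had other companions. HABP2, a secreted serine protease, was first for TFF2 (r = 0.998 over 7 libraries) and next after TFF2 for TFF1 (0.996). Its log2 RPKM was 4.66, 4.58 and 4.57 in WT1, WT2 and WT3 and -9.73, 3.55, -0.11 and -2.83 in KO1, KO2, KO3 and KO4, the same order of clones as TFF1 and TFF2. A gene of 1 kb without reads is at -7.86, and longer genes are lower still. The KO1 value of HABP2 lies below -7.86, so the size of its drop there is not read. VSIG1, a junction protein of gastric epithelium, came next for TFF1 with 2.99, 2.91 and 2.63 in WT and -5.85, 1.06, -0.41 and -2.16 in the clones. ARHGAP42, SLC37A3, CMBL and ANKRD29 filled the other places for TFF1 and TFF2. TFF3 was most like MGST2, a microsomal glutathione transferase (r = 0.997), GPR37, ESAM, SMURF1 and COPS6. Of those, GPR37 moved most, from 1.68, 1.91 and 1.87 in WT to -6.07, -0.89, 0.52 and -2.23 in the clones. Least like TFF1 was UNC13B, least like TFF2 was FAM64A and least like TFF3 was WDR5. With 7 libraries and 11154 genes high values of r are to be found for any gene, so these names are a description.

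Genes that work with the 5 were then tested as lists, which were chosen with earlier results of these data known. With the clones as replicates, limma called 46 of the 11154 genes (0.412%), 19 of them higher (0.17%) and 27 lower (0.242%), and it called 0 in the 7 lists below, and between 1 and 6 genes of each list had an unadjusted p under 0.05, as did 15.7% of all tested genes. Clone by clone the counts below are to be read against all tested genes, among which the lower calls were 25%, 17.9%, 19.8% and 14.5% for KO1, KO2, KO3 and KO4, and the higher calls 19.2%, 15.3%, 14.2% and 10.2%. Without WT2 fewer genes were called in every clone, 27.7%, 14.9%, 14.9% and 10.4% in either direction. In the comparison of clones with WT the share of calls that were higher was 41.3%, and 56.1% after quantile normalization. For KO1 it was 43.4%, 53.4% after quantile normalization and 53.0% after median centring.

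Mucins are the gel-forming and membrane glycoproteins that AGR2 helps to fold, and 3 of the 17 listed were tested. All 3 were called lower in KO1, while 1 was higher and 1 lower in KO2, 2 were lower in KO3 and 1 in KO4. MUC5B, a gel-forming mucin, was at a log2 RPKM of 2.54, 2.29 and 2.71 in WT1, WT2 and WT3 and -3.94, 1.72, 0.22 and -2.48 in KO1, KO2, KO3 and KO4. It passed the test as lower in every clone, by -6.46, -0.79, -2.29 and -5.0 (limma, adjusted p 2.29e-06, 0.0175, 0.000429 and 3.78e-05). MUC13, a membrane mucin of gut epithelium, was at 2.07, 1.85 and 1.83 in WT and -3.08, 5.0, 1.10 and 2.17 in the clones, so KO2 stood 8.45-fold above WT and KO1 32.0-fold below it (limma, adjusted p 0.000115 and 3.75e-06). MUC15 was called in KO1 only, at -1.17 (limma, adjusted p 0.000885), and whether KO1 differs from the other clones was not tested. MUC5AC, named after its values were seen, was below the filter, with -1.05, -1.50 and -1.17 in WT and -5.27, 1.24, 0.64 and -4.26 in the clones, which placed KO2 and KO3 above and KO1 and KO4 below WT as for AGR2.

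Other products of goblet and mucous cells gave 5 tested genes of 23. All 5 were called lower in KO1 and 4 lower in KO4, whereas in KO2 4 were called higher and 1 lower, and in KO3 1 higher and 3 lower. Without WT2, 2 were higher in KO2. SPINK1, a secreted trypsin inhibitor, was at 1.08, 1.02 and 1.07 in WT and -5.04, 1.68, -1.84 and -2.97 in KO1, KO2, KO3 and KO4, and it was called lower in 3 clones and higher in KO2 (limma, adjusted p 3.16e-06, 0.016, 0.00011 and 5.74e-05). TSPAN1, a tetraspanin of secretory epithelia, was called lower in all 4, by -3.55, -0.73, -1.79 and -1.67 (limma, adjusted p 7.4e-06, 0.00837, 0.000336 and 0.000452). TSPAN8, another tetraspanin, was 9.51-fold above WT in KO2 and 2.59-fold above it in KO3, and 5.05-fold below it in KO1 (limma, adjusted p 0.000528, 0.00853 and 0.000673). ZG16B, a secreted lectin-like protein, was lower in KO1 and KO4, by -1.43 and -1.16, and higher in KO2, by 0.56 (limma, adjusted p 0.000816, 0.00407 and 0.0295). CAPN9, a calpain of the stomach, was at 0.74 to 1.08 in WT and -9.23, 3.13, -2.57 and -1.38 in KO1, KO2, KO3 and KO4. The KO1 value lies below -7.86, the level of a 1 kb gene without reads, so the size of that drop is not read.

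Mucin glycosylation enzymes build the O-linked sugar chains, and 14 of 22 were tested. Lower calls numbered 8, 1, 6 and 8 and higher calls 3, 5, 2 and 1 for KO1, KO2, KO3 and KO4. Without WT2 the higher calls in KO2 were 3 and the lower calls in KO4 were 5. B3GNT6, the core 3 synthase of gut mucins, was called lower in all 4 clones, by -4.59, -1.61, -1.34 and -0.64 (limma, adjusted p 1.66e-05, 0.00222, 0.00357 and 0.0475). GALNT7, which extends sugar-bearing sites, was higher in KO1, KO2 and KO3, by 0.68, 0.47 and 0.47 (limma, adjusted p 0.0032, 0.0185 and 0.0178). GALNT12, which attaches the first sugar, was at -2.87, -2.81 and -3.14 in WT and 1.22, 1.24, -4.48 and 1.38 in KO1, KO2, KO3 and KO4. It passed the filter only through KO1, KO2 and KO4, where it was high. Its higher calls in those clones, among them the only higher call of the list in KO4, are therefore a description. C1GALT1C1, the chaperone of the core 1 synthase, had a difference of -0.37 between clones and WT (limma, adjusted p 0.223).

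**Figure D5:**
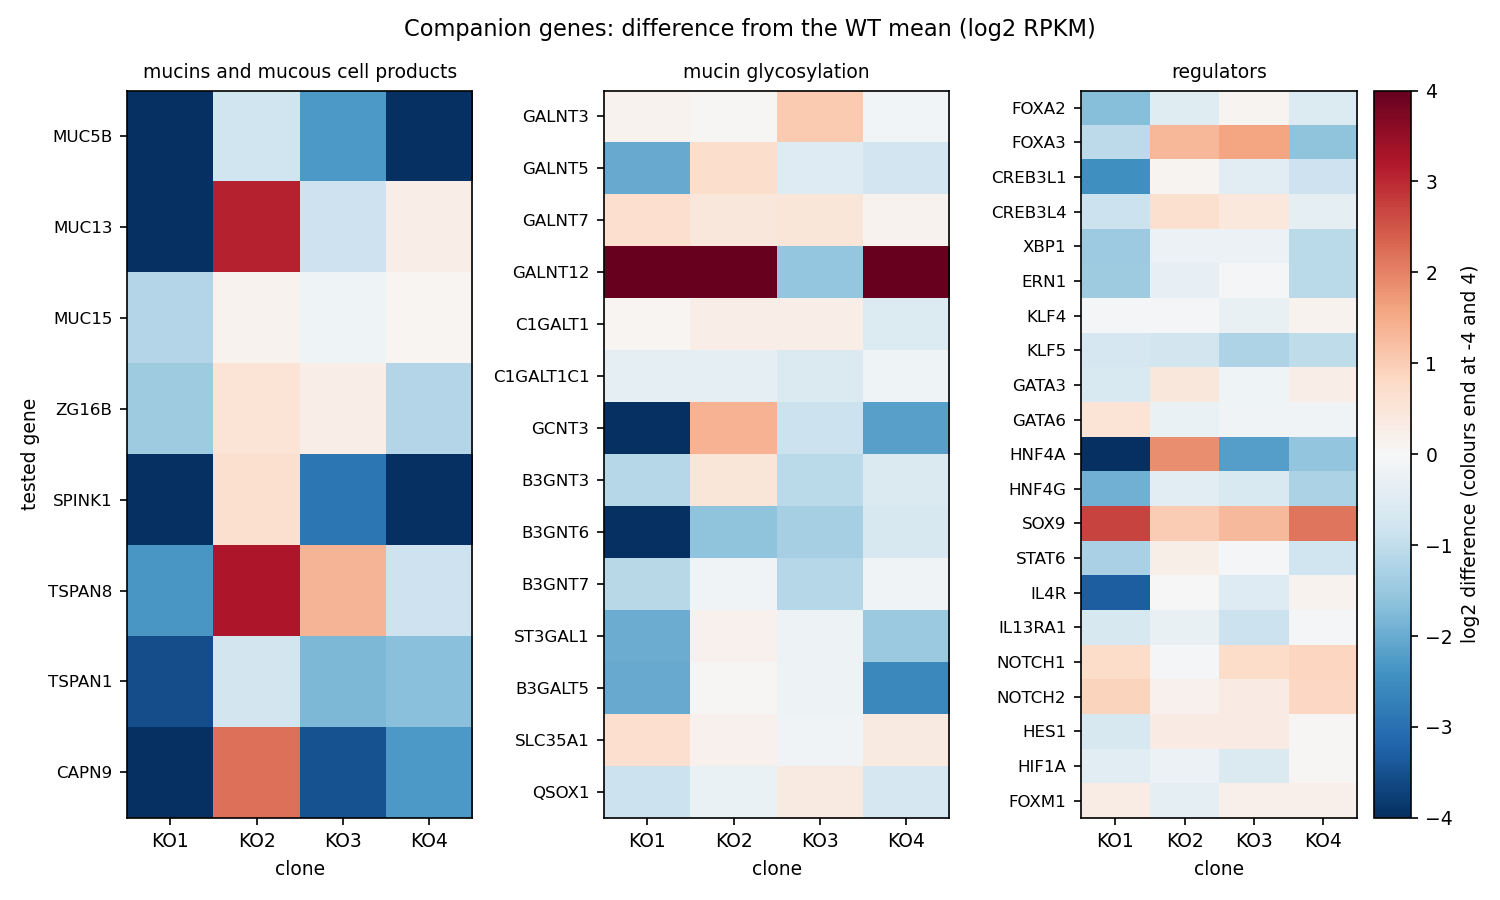
Heat maps of the difference between each clone (columns) and the WT mean (log2 RPKM, colours end at -4 and 4) for tested mucins and mucous cell products, mucin glycosylation enzymes and regulators of secretory epithelium (rows, 1 regulator not drawn). KO1 is blue in every mucin and mucous product, and KO2 is red in MUC13 and TSPAN8.

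Regulators of secretory epithelium gave 22 tested genes of 38. KO1 had 15 of them lower and 4 higher, KO2 1 and 6, KO3 7 and 4, and KO4 8 and 3. Without WT2 the higher calls in KO2 and the lower calls in KO3 were 3 each, and without WT3 the lower calls in KO2 were 6. HNF4G, a nuclear receptor of gut and kidney epithelium, was at 3.01, 3.21 and 3.33 in WT and 1.26, 2.73, 2.59 and 1.91 in the clones, and was called lower in KO1, KO3 and KO4 (limma, adjusted p 0.000148, 0.0243 and 0.0021). SOX9, a factor of progenitor cells, went the other way in all 4 clones, from 1.06, 1.22 and 1.01 in WT to 3.80, 2.12, 2.41 and 3.24 (limma, adjusted p 2e-05, 0.00418, 0.00151 and 0.000209). KLF5 was called lower in KO3, by -1.22 (limma, adjusted p 0.0289), and NOTCH2 higher in KO1, KO3 and KO4, by 0.90, 0.34 and 0.83 (limma, adjusted p 0.000545, 0.0339 and 0.00178). FOXA2, a forkhead factor named after its values were seen, was at 4.18, 4.28 and 4.20 in WT and 2.52, 3.73, 4.32 and 3.69 in the clones. HNF4A, named in the same way, was at 1.64, 1.52 and 1.47 in WT and -6.10, 3.41, -0.65 and -0.04 in the clones, high in KO2 and low in the rest.

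Of 26 other ETS factors 17 were tested, with 4 lower in each clone and 2, 1, 0 and 2 higher in KO1, KO2, KO3 and KO4. Without WT2 the lower calls were 2 in KO2 and 2 in KO3, and without WT3 the higher calls were 4 in KO2 and 5 in KO4. ELF3, the epithelial ETS factor, was at a log2 RPKM of 4.32, 4.19 and 4.48 in WT and 0.78, 4.74, 3.05 and 2.99 in the clones, and was called lower in KO1, KO3 and KO4 (limma, adjusted p 5.72e-06, 0.00121 and 0.00108). ETS1 was called lower in all 4, by -0.50, -1.91, -1.02 and -0.60 (limma, adjusted p 0.00665, 0.000163, 0.000826 and 0.00669), and was lowest in KO2, the clone with the highest SPDEF.

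Isomerases and oxidases of the endoplasmic reticulum, the enzyme class of AGR2, gave 19 tested genes of 25. Lower calls numbered 7, 4, 4 and 8 and higher calls 1, 2, 7 and 1 in KO1, KO2, KO3 and KO4. Without WT2, the lower calls in KO2, KO3 and KO4 were 0, 1 and 1, with list medians of -0.04, 0.14 and -0.20 beside -0.07, 0.14 and -0.23 in the full comparison, and without WT3 those in KO2 were 7. ERP29, a chaperone of the same fold, was at 5.88, 6.07 and 6.31 in WT and 5.45, 5.63, 5.52 and 5.42 in the clones, below all WT libraries in each. PDIA4, PDIA6 and HSPA5 were named after their values were seen, so they are given without a test. Their differences from the WT mean, in that order, were 1.21, 1.15 and 1.45 in KO3 and -0.73, -0.39 and -0.51 in KO4. In KO2 the differences were -0.22, -0.37 and 0.08, and in KO1 they were -1.24, -0.58 and -0.06. AGR2 was at 0.0702%, 129%, 129% and 15.1% of WT in KO1, KO2, KO3 and KO4.

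Receptors and partners linked to AGR2 and trefoil factors gave 8 tested genes of 19, with 3, 3, 3 and 2 lower and 2, 0, 0 and 2 higher in KO1, KO2, KO3 and KO4. Without WT2 the higher calls in KO1 and KO4 were 1 each, and without WT3 those in KO3 were 2. AREG, the EGF receptor ligand amphiregulin that AGR2 is known to raise, was at a log2 RPKM of 7.05, 7.27 and 7.10 in WT and 3.82, 6.41, 6.02 and 6.25 in the clones, and was called lower in all 4 (limma, adjusted p 3.94e-06, 0.00604, 0.00122 and 0.00326).

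Markers of general epithelial identity moved with the 5 genes in part, and their share in the result was not tested. Of 12 tested epithelial markers, limma called 9, 1, 6 and 8 lower and 0, 4, 0 and 1 higher for KO1, KO2, KO3 and KO4. Their summed RPKM, over the 13 with values, was 615 to 732 in WT and 382, 722, 332 and 506 in KO1, KO2, KO3 and KO4. The median difference of the 12 tested markers from WT was -1.21, 0.29, -0.27 and -0.85 in KO1, KO2, KO3 and KO4. By the sum KO3 was the lowest clone, and by the median KO1 was. The 3 thyroid markers with values summed to 2.44 to 3.34 RPKM in WT and 19.3, 6.20, 3.92 and 3.67 in KO1, KO2, KO3 and KO4. DIO2, which encodes an enzyme that activates thyroid hormone, was at a log2 RPKM of 0.23, -0.22 and -0.95 in WT1, WT2 and WT3. KO1, KO2, KO3 and KO4 gave 3.96, -3.24, 1.29 and 0.90. Of the WT libraries only WT1 was above the filter level, so DIO2 passed the filter through KO1, KO3 and KO4, where it was high. Its values are therefore a description. HHEX, a homeobox gene, was higher in KO1 and KO2, by 0.94 and 1.55 (limma, adjusted p 0.0104 and 0.00296). Leukocyte markers CD14 and ITGAM summed to 0.67 to 2.46 RPKM over all libraries. The 4 fibroblast and endothelial markers with values summed to 51.4 to 55.4 in WT and 20.4, 32.4, 70.2 and 34.8 in the clones.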

How the data were processed

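Total RNA of 3 WT and 4 KO samples was made into TruSeq RNA libraries, per the labels' protocols. Trim Galore 0.4.1, STAR 2.5.3a, HTSeq 0.11.2, edgeR and build hg38 are named in the submitters' processing notes, with no order, strand or annotation. The authors deposited log2 RPKM for 13142 genes, used as given. RPKM times GENCODE 29 exon length (kb) rose in steps of 1 read above 0.00431, the value without reads, which implies a prior count of 0.25. Between 93.4% and 94.4% of values up to 400 reads were whole within 0.05, and reads of the 5 genes were taken from these steps with exact 95% Poisson intervals. No count test was run.

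Genes above a log2 RPKM of 0 in at least 3 of 7 libraries were tested with limma 3.58.1 (R 4.3.3), with a variance trend and Benjamini-Hochberg adjustment over 11154 genes, threshold 0.05, for all clones or 1 clone against WT. The procedure was tested on simulated data. The 5 genes and all lists were chosen with earlier results of these data known. Named list genes were the 4 with the smallest unadjusted p per list plus abundant ones of wide range. For each of the 5 genes the 5 most and 3 least correlated genes were taken, leaving out those with placeholder symbols. Alternatives covered filters, pseudocounts, scaling, the variance trend, the replicate block and leaving out each library. Promoters were found for 2 of the 5 genes. A few genes that these rules select are not reported here.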

Additional observations from a re-analysis of the deposited data

Results flagged for a closer look

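Among the 4 clones, the 5 genes and their companions were searched for a single clone set apart from the other 3 by Dixon's test at the 95% level. Of 59 genes 3 were picked out, and chance alone picks about 1 in 20. GALNT12 was low in KO3, at a log2 RPKM of -4.48, against 1.22 to 1.38 in the other clones, through which alone it passed the filter. AREG was low in KO1, at 3.82, against 6.02 to 6.41. GABPA, an ETS factor, was high in KO2, at 1.78, against 1.47 to 1.51. None of the 5 genes themselves was picked out.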

How the results depend on the processing

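For AGR2, SPDEF, TFF1, TFF2 and TFF3 the difference between clones and WT kept its sign under each alternative run, and its size rests on KO1. With 1 library left out it ran from -4.28 to -0.66 for AGR2, -4.24 to -0.61 for SPDEF, -4.01 to -2.12 for TFF1, -2.76 to -1.33 for TFF2 and -3.58 to -1.97 for TFF3, with the smallest size in each case without KO1. AGR2 and SPDEF were above the WT mean in KO2 and KO3. Their negative sign thus rests on KO1 and KO4, which no alternative left out together. The number of genes called between clones and WT was 46, and became 30 with a filter at a log2 RPKM above 1, 75 on log2(RPKM + 1), 114 after quantile normalization and 0 to 236 when 1 library was left out (0 without WT1, WT2 or WT3, 51 without KO1, 236 without KO2, 87 without KO3 and 1 without KO4). Leaving out WT2 lowered the calls of KO1, KO2, KO3 and KO4 to 3085, 1667, 1662 and 1159, and the highest counts without 1 WT library were 5833, 4889, 4889 and 3976. With a replicate block and KO4 left out no gene was called (0). Same-numbered WT and KO libraries deviated together only weakly (r = 0.06, 0.07 and -0.01), and those of unlike number gave r from -0.099 to 0.081. The KO deviations also hold the differences between clones, so these values cannot decide whether the numbers pair the samples. Calls in the lists stayed at 0, except 1 glycosylation gene without KO3, and 2 regulators and 1 epithelial marker without KO2. The difference between clones and WT changed sign for 3 genes: MUC15 ran from -0.43 (without KO2) to 0.0089 (without KO1), MUC13 from -1.86 (without KO2) to 0.84 (without KO1), with 0.072 on log2(RPKM + 1), and TSPAN8 from -0.59 (without KO2) to 1.27 (without KO1). Of 417 alternatives over 28 genes 411 kept sign and side of the threshold. Each clone has 1 library, and SPDEF in KO1 has 1 read.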
